A study of Mus musculus with 12 samples.

Results

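The mRNA of 9 genes of the interleukin-1 (IL-1) family was examined in lymphatic endothelial cells (LECs) of the mouse lung. The genes were Il1a, Il1b and Il1rn, which encode ligands of the IL-1 receptor, Il1r1 and Il1rap, which encode its 2 chains, Il33 and Il1rl1, a ligand and its receptor, and Il18 and Il18r1, a further ligand and receptor. They were chosen by symbol, with earlier results of these data known, and all 9 were found among the 52636 Ensembl identifiers counted in the series. LECs had been sorted from digested lungs of Prox1-EGFP mice, in which regulatory sequence of the transcription factor gene Prox1 drives a green fluorescent protein. The sort kept cells positive for the fluorescent protein and for the endothelial surface protein CD31, and removed cells positive for EpCAM or for a cocktail of blood lineage markers. Mice breathed cigarette smoke (CS) in a whole-body system or room air (RA). There were 2 acute RA libraries (F and M), 2 acute CS libraries (F and M), 3 chronic RA libraries (F, M1 and M2) and 5 chronic CS libraries (F, M1, M2, M3 and M4), where the letter is the sex. The labels call the acute groups 8wk and the chronic groups Aged in the field for age. The study's methods describe them as 8 weeks and at least 24 weeks of exposure, which began at 6 weeks of age. Each acute library pooled LECs of 2 to 5 mice, and the chronic libraries were not pooled. A difference between acute and chronic groups therefore also holds a difference in pooling and in age.

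Ligands of this family alert cells to injury and infection. Interleukin-1α and interleukin-1β both bind the receptor chain made from Il1r1, which then recruits the accessory chain made from Il1rap. The product of Il1rn occupies the same receptor without starting a signal. Interleukin-33 is stored in the nucleus of barrier and endothelial cells and acts on cells that carry the product of Il1rl1, such as group 2 innate lymphoid cells (ILC2), mast cells and regulatory T cells. Interleukin-1β and interleukin-18 are made as precursors, which caspase-1 cuts after an inflammasome has formed, and interleukin-18 acts through Il18r1 and its partner Il18rap. All of these receptors except decoys and inhibitory forms signal through the adaptor MyD88.

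On GRCm38, Il1a (ENSMUSG00000027399) lies on chromosome 2 from 129299610 to 129309972 and Il1b (ENSMUSG00000027398) from 129364570 to 129371139, both on the minus strand. These neighbours are 54.6 kb apart. Il33 (ENSMUSG00000024810) lies on the plus strand of chromosome 19 from 29925114 to 29960718. The 250 bases before a transcription start annotated by RefSeq on GRCm38.p6 are shown for these genes because Il1a was the member that passed the test after acute smoke, Il1b reached the highest level of the 9 in a smoke library, and Il33 had the highest level in room air. Capitals mark TATAAA on either strand, the core of the TATA box, and TGANTCA, the core of the site bound by AP-1 factors, and no match of these motifs overlapped another in the windows shown. For Il33 the second of 2 annotated starts is shown, which lies inside the gene and was chosen after the matches in both windows were seen.
Il1a, chr2:129309973-129310222, minus strand: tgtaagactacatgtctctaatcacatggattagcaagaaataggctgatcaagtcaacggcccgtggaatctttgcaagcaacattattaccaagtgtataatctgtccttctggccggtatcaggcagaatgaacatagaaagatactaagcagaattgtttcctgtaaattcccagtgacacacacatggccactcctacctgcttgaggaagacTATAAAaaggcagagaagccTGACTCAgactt
Il1b, chr2:129371140-129371389, minus strand: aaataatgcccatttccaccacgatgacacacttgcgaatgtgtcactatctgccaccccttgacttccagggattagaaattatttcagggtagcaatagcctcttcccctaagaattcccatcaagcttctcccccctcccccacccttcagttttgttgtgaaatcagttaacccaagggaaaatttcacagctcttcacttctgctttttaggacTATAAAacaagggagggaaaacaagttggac
Il33, chr19:29945540-29945789, plus strand: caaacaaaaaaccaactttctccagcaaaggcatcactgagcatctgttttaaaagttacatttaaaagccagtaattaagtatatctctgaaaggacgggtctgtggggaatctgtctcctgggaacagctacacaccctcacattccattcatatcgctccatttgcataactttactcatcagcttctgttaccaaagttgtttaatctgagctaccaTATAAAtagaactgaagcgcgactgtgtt

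The first base of TATAAA lay 32 bases before the start in Il1a, 31 bases before it in Il1b and 29 bases before the second start of Il33. The other matches of TATAAA in the members lay farther away, 203 bases before the first start of Il33 and 175 bases before the start of Il18. In the promoter table all 9 members matched, with 16 annotated starts between them. TATAAA occurred in 5 of these 16 windows, from the members Il1a, Il1b, Il33 and Il18, and in 12.4% of all 32851 windows of the same length. TGANTCA occurred in 2 of the 16 windows, from Il1a and Il1rn, and in 6.75% of all windows. In Il1a its first base lay 12 bases before the start. These matches describe letters in the windows and were not set against binding data.

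The deepest library, acute RA F, held 56998590 counts and the shallowest, chronic CS F, held 18821438. Levels are given below as CPM, counts scaled to a common library size with edgeR's TMM factors, and where genes are compared with each other as FPKM, which also divides by the summed exon length. The lymphatic label was checked with 8 marker genes. In the RA libraries Prox1 lay between 1836 and 2476 CPM and Flt4, the VEGF receptor of lymphatic endothelium, between 2716 and 4513 CPM. The chemokine gene Ccl21a, which has near-identical copies that can take up its reads, did not exceed 1.06 CPM anywhere. The acute CS libraries stood apart: the summed level of the 8 lymphatic markers was 6485 and 9822 CPM there against 15254 to 22931 CPM in the RA libraries, and the 4 pan-leukocyte markers summed to 1173 CPM in F and 869 CPM in M against at most 208.4 CPM in any other library. Of the 8 lymphatic markers, 7 were lower in both acute CS libraries than in both acute RA libraries. Lyve1 was higher there, at 777 against 489.1 CPM on average. In bulk RNA of this kind, fewer cells of a type and less RNA per cell cannot be told apart.

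In room air, Il33 was by far the most abundant member per transcript length. It lay between 24.8 and 84.7 FPKM (mean 45.1 ± 24.1, SD, n = 5 RA libraries), and its range was apart from that of the next member. Il1b followed at 6.49 ± 4.69 FPKM, then Il18 at 2.38 ± 1.29 FPKM and Il1rap at 1.61 ± 0.282 FPKM (SD, n = 5 each). The ranges of Il1b and Il18 overlapped, as did those of Il18 and Il1rap. The receptor chain Il1r1 came next at 0.981 ± 0.274 FPKM, apart from Il1rap, so that the accessory chain was the higher of the 2 chains in all 5 libraries. Il1a (0.738 ± 0.652 FPKM), Il1rn (0.316 ± 0.210 FPKM) and Il18r1 (0.174 ± 0.0964 FPKM) each overlapped with the neighbour in this order. The order of Il1a and Il1rn turned between the RA groups: in acute RA Il1rn (0.512 FPKM on average) lay above Il1a (0.274 FPKM) in both libraries, and in chronic RA Il1a (1.05 FPKM) lay above Il1rn (0.185 FPKM) in all 3. Il1rl1 was last, with no count in 4 of 5 RA libraries and 0.105 FPKM in chronic RA F. The RA libraries thus held the mRNA of the ligand interleukin-33 together with little or no mRNA of its receptor.

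**Figure D1:**
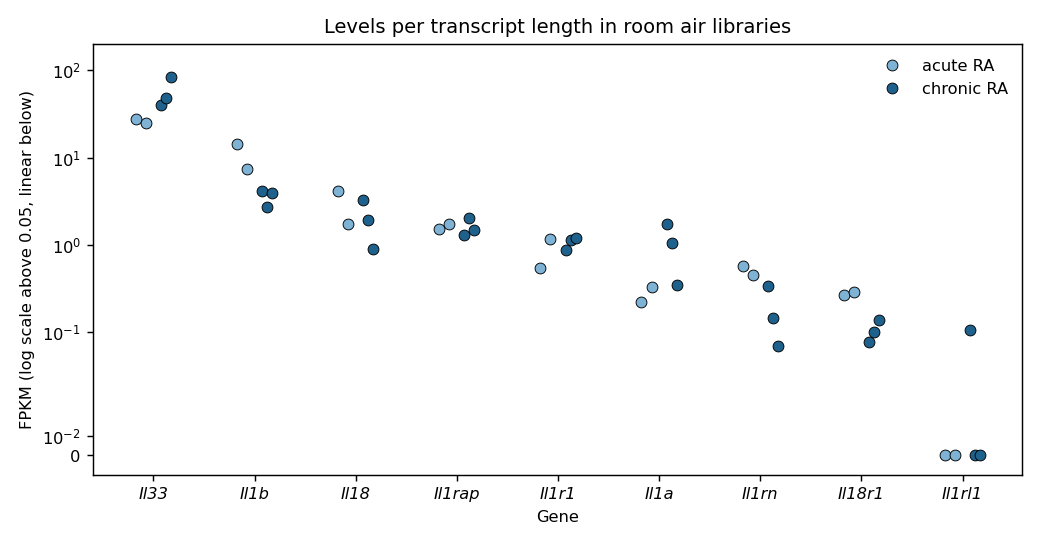
FPKM of the 9 genes (y axis, logarithmic above 0.05 and linear below) in the 2 acute RA and 3 chronic RA libraries, with 1 point per library and genes ordered by their mean. Il33 lies at 24.8 FPKM or more in every library, above all other members, and Il1rl1 is at 0 in 4 of 5.

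The first comparison asked how 8 weeks of CS changed these genes. Of the 9 members, 1 passed an adjusted p of 0.05 in edgeR's quasi-likelihood test, against 3.47% of the 21440 genes tested. This was Il1a, which rose 20.8-fold. The number of calls depended on single libraries for all genes. Without acute CS F, acute RA F or acute RA M no member was called, and the share of all genes called was 0.768%, 0.342% and 0.0130%, respectively. Without acute CS M 2 members were called (Il1a and Il1b, against 3.73% of all genes), as were 2 without chronic CS M1 (Il1a and Il1r1, against 3.85%). Il1rl1 passed the filter on low counts only through the acute CS libraries, where it was high, and is therefore left out of the counts that follow. Of the other 8 members, 4 had an unadjusted p under 0.05, against 15.7% of all genes, and DESeq2 called 4 (Il1a, Il1b, Il1r1 and Il18), against 10.9% of the genes it gave an adjusted p. In 5 of the 8 both acute CS libraries lay above both acute RA libraries (Il1a, Il1rn, Il1r1, Il18 and Il18r1), which held for 27.4% of all genes. The median log2 fold change of the 8 was 2.80, and 0.04 over all genes tested. With 2 libraries a group, an exact two-sided permutation test of a single gene cannot go below p = 0.333, the value that each of these 5 members reached.

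**Figure D2:**
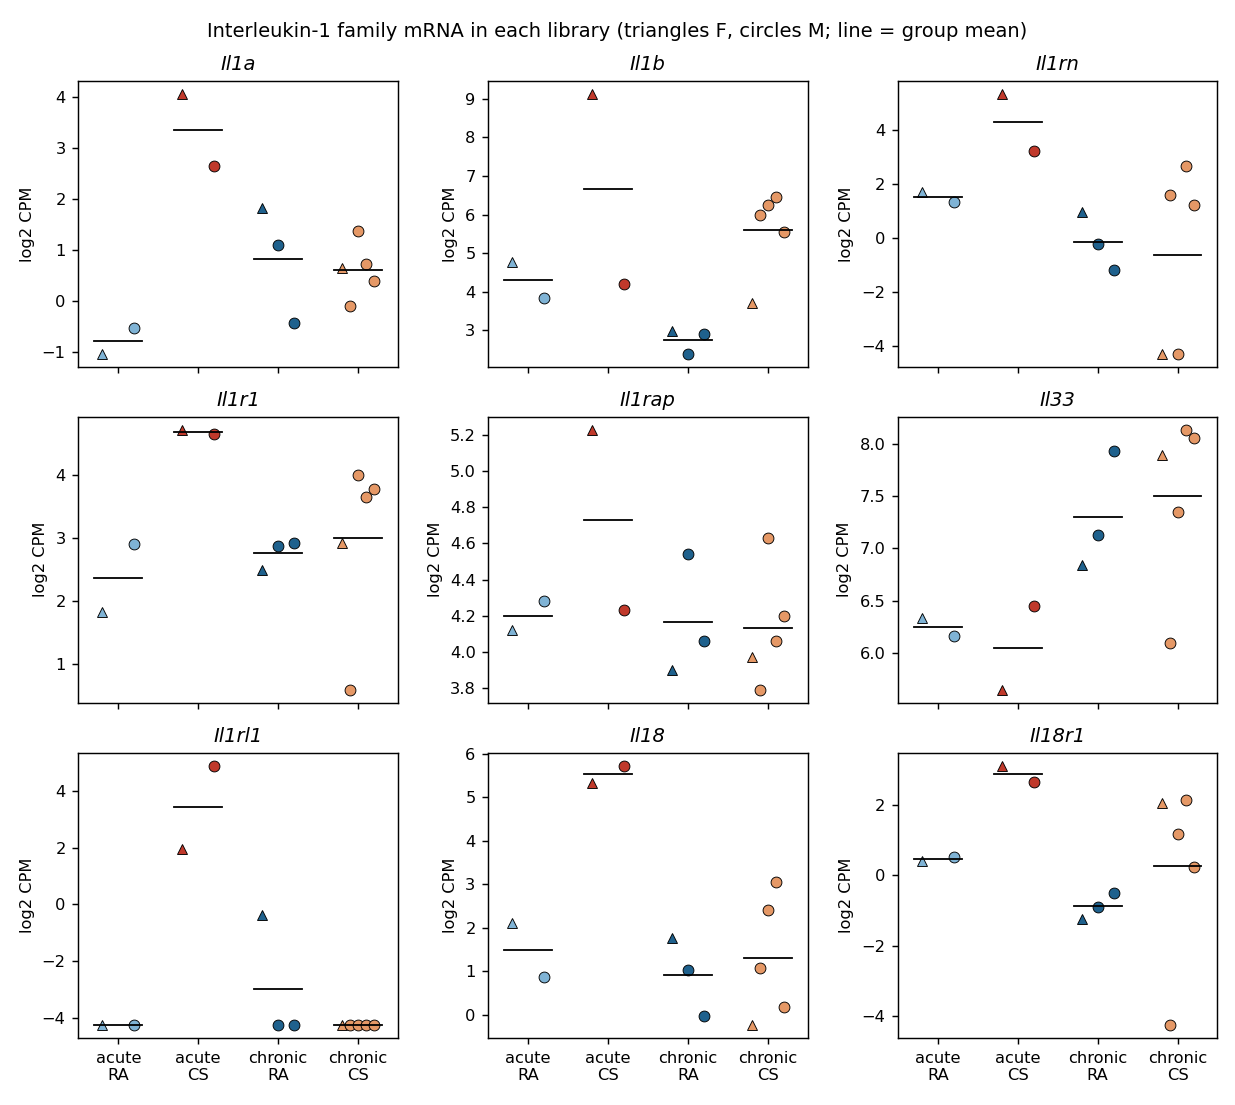
log2 CPM (y axis, prior count of 2) of each of the 9 genes in the 12 libraries, grouped by exposure, with triangles for F, circles for M libraries and a line at each group's mean. Il1a, Il18, Il1r1 and Il18r1 are high in both acute CS libraries, Il1b is highest in acute CS F and lies higher in chronic CS M1 to M4 than in chronic CS F and the RA libraries, and Il1rl1 appears in acute CS and in chronic RA F only.

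Il1a encodes a ligand that is active without cleavage by caspase-1 and is released from injured cells. It was at 0.439 CPM in the F and 0.643 CPM in the M library of acute RA, and at 16.5 CPM (F) and 6.18 CPM (M) in acute CS. The groups did not overlap, and the smoke library was 37.5-fold higher among F and 9.61-fold higher among M. The fitted log2 fold change was 4.38 ± 0.86 (SE), with an adjusted p of 0.0201 from edgeR. Across the 19 alternatives run for it the log2 fold change lay between 3.51 and 4.92, and the adjusted p between 1.65e-06 and 0.192. The call was lost without acute CS F (log2 fold change 3.51, adjusted p = 0.141), without acute RA F (4.13, 0.192) and without acute RA M (4.65, 0.171), and it was also lost when only the 4 acute libraries were fitted (4.38, 0.0844) and with the replicate label as a block (4.24, 0.170). Il1a shares 222 exonic bases with the gene Gm14023 on the other strand, which held 69 counts over all 12 libraries, and the strand setting of the counting was not stated.

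Il1b encodes the ligand that is secreted mainly by activated myeloid cells. It was at 27.3 (F) and 14.2 CPM (M) with room air and at 556.1 (F) and 18.3 CPM (M) with acute smoke. The male smoke library lay between the 2 control libraries, so the groups overlapped. The log2 fold change was 3.79 ± 1.21 (SE) with an adjusted p of 0.134, and it rested on acute CS F: without that library it was -0.18, and without acute CS M it was 4.75 and called (adjusted p = 0.0106). Acute CS F also held 1135 CPM of the 8 neutrophil and monocyte markers, among them S100a8 at 349.4 CPM and S100a9 at 412.9 CPM, whereas the list summed to 40.6 CPM in the other smoke library and to 33.7 and 14.4 CPM in the controls. The 7 alveolar type 2 markers were also highest in acute CS F, at 5283 CPM against 207.9 CPM in acute CS M and 636 to 909 CPM in acute RA. What part the cell types of both lists had in the level of Il1b was not tested.

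Il1rn, the receptor antagonist, was at 3.19 and 2.48 CPM in acute RA F and M, and at 40.0 and 9.26 CPM in acute CS F and M. Both smoke libraries were higher than both controls, with a log2 fold change of 3.12 ± 1.84 (SE) and an adjusted p of 0.479. Per exon length, Il1b exceeded Il1rn in all 4 acute libraries. The ratio of Il1b to Il1rn went from 24.8 with room air to 40.3 with smoke in F, and from 16.6 to 5.72 in M, so it moved in opposite directions in the F and the M libraries.

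The chains of the IL-1 receptor differed in their values. Il1r1 (ENSMUSG00000026072) was at 3.48 and 7.44 CPM in acute RA F and M, and at 26.2 and 24.8 CPM in acute CS F and M. The smoke libraries were close to each other and above both controls, with a log2 fold change of 2.22 ± 0.80 (SE) and an adjusted p of 0.189. DESeq2 called it (adjusted p = 0.0352), and so did edgeR without chronic CS M1 (adjusted p = 0.0242). Il1rap (ENSMUSG00000022514) was at 17.4 and 19.4 CPM in acute RA and at 37.6 and 18.7 CPM in acute CS. These groups overlapped, with a log2 fold change of 0.61 ± 0.37 (SE) and an adjusted p of 0.483.

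Il18, whose product drives interferon-γ release by T and natural killer cells, was at 4.26 and 1.78 CPM in acute RA F and M. In acute CS it was at 40.0 CPM in F and 52.6 CPM in M. Both smoke libraries lay over 9-fold above the control of the same sex (9.40-fold in F, 29.6-fold in M). The log2 fold change was 3.94 ± 1.08 (SE) and the adjusted p was 0.0784, past the limit with DESeq2 (0.000742) and without the filter on low counts (0.0373). Il18r1, the ligand-binding chain of its receptor, was at 1.28 and 1.38 CPM in acute RA and at 8.72 and 6.25 CPM in acute CS. Its log2 fold change was 2.49 ± 1.38 (SE) with an adjusted p of 0.445. Of the accessory chain Il18rap there were 4 counts in acute RA F and 0 in acute RA M (0.0676 and 0 CPM), and it was at 13.4 (F) and 6.49 CPM (M) with smoke. Il18rap rose with a log2 fold change of 8.03 ± 1.62 (SE) and an adjusted p of 0.0222, a size that depends on the few control counts. The call was lost without acute CS F (log2 fold change 7.42), acute RA F (11.52) or acute RA M (7.10). It was also lost when only the acute libraries were fitted (8.04, adjusted p = 0.0840) and with the replicate label as a block (8.41, 0.0982). The soluble binding protein gene Il18bp, a secreted inhibitor of interleukin-18, was at 20.5 CPM on average in acute RA and 21.8 CPM in acute CS (log2 fold change 0.09 ± 0.26, SE, adjusted p = 0.947).

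Il33 was at 80.2 and 71.6 CPM in acute RA F and M and at 50.1 and 87.7 CPM in acute CS F and M. The smoke libraries lay on either side of the controls, with a log2 fold change of -0.14 ± 0.55 (SE) and an adjusted p of 0.965. Il1rl1 (ENSMUSG00000026069), the receptor of interleukin-33, had no count in either acute RA library. A count of 0 allows up to 0.0507 CPM in acute RA F and 0.0568 CPM in acute RA M, taking 3 counts as the floor, for counting error only. The smoke libraries held 195 counts (F, 3.83 CPM) and 1364 counts (M, 29.6 CPM). Against the higher of these floors its mean in acute CS was at least 294-fold higher, and its lower library at least 67.4-fold higher. Its adjusted p was 0.140, and 0.0392 without the filter on low counts. Because Il1rl1 entered the tested set through acute CS and its fold rests on controls at 0, its counts are given as a description and nothing is drawn from these p-values.

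Il1rl1 and Il18r1 are adjacent in a cluster of receptor genes of the family. On the plus strand of chromosome 1, Il1r2, Il1r1, Il1rl2, Il1rl1, Il18r1 and Il18rap lie in this order within 478 kb, from 40074079 to 40551705, and 136 bases separate the end of Il1rl1 from the start of Il18r1. Leaving out Il1rl1 for the reason given above, both acute CS libraries were above both acute RA libraries in all 5 other genes, against 27.4% of all genes, and 1 of the 5, Il18rap, passed the adjusted limit, against 3.47% of all genes. Il1r2, a decoy receptor for interleukin-1, was at 1.54 and 1.34 CPM in acute RA F and M and at 21.8 and 2.97 CPM in acute CS F and M (log2 fold change 3.10 ± 1.92, SE, adjusted p = 0.506). Il1rl2, which binds interleukin-36 ligands and is named here after its values were seen, was at 0 and 0.681 CPM in acute RA F and M and at 7.85 and 4.10 CPM in acute CS F and M (adjusted p = 0.449). The 6 genes did not follow the same libraries: Il1r2 was highest in acute CS F and Il1rl1 in acute CS M, and Il1r1 was about as high in each.

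**Figure D3:**
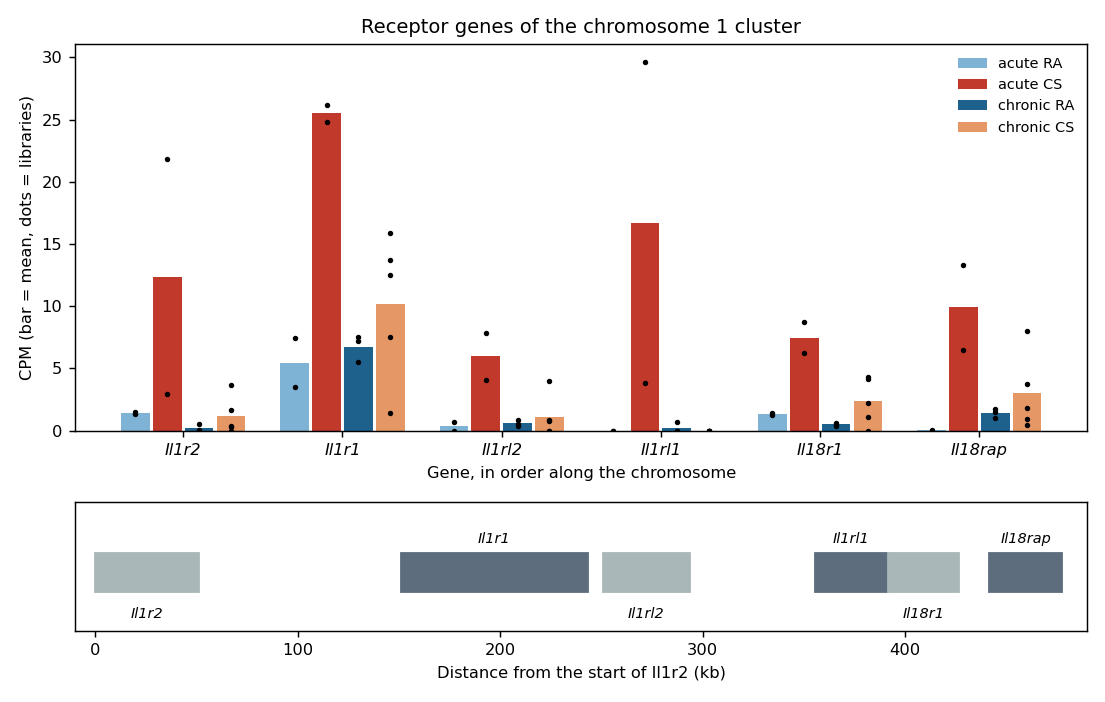
Upper panel, CPM (y axis) of the 6 receptor genes of the chromosome 1 cluster, with bars for group means and dots for libraries; lower panel, position of the genes as distance from the start of Il1r2 in kb (x axis). The red bars for acute CS are the highest of the 4 groups for every gene, while the dots of Il1r2 and Il1rl1 in acute CS are far apart (21.8 and 2.97 CPM, and 3.83 and 29.6 CPM).

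Of 48 further genes of the pathway, 39 passed the filter, 2 of them (Nlrc4 and Prtn3) only through acute CS. Of the other 37, 2 rose and none fell past the adjusted limit after acute CS, against 3.47% of all genes. The 2 were Il18rap, described above, and Tnfaip3, which encodes the A20 protein that restrains NF-κB signalling. Tnfaip3 was at 33.5 and 38.4 CPM in acute RA F and M and at 277.6 and 178.0 CPM in acute CS F and M. It rose by a log2 fold change of 2.66 ± 0.34 (SE) with an adjusted p of 0.00400. Without acute RA F the adjusted p was 0.0564 and without acute RA M 0.0766, with log2 fold changes of 2.57 and 2.73. Among 22 genes of MyD88 signalling the median log2 fold change was 0.22, and Myd88 itself was at 48.8 CPM in acute RA and 59.7 CPM in acute CS on average (0.29 ± 0.22, SE, adjusted p = 0.629). The inhibitory receptor gene Sigirr was at 129.9 and 129.5 CPM on average (log2 fold change 0.00 ± 0.20, SE, adjusted p = 1).

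None of the 11 tested genes for inflammasomes and precursor cleavage passed the adjusted limit after acute CS, against 3.47% of all genes. Without Nlrc4 and Prtn3, 5 of 9 had an unadjusted p under 0.05, against 15.7% of all genes. DESeq2 called Capn1 and Pycard in this list, and Tnfaip3, Il18rap, Nfkbia, Zc3h12a and Il36g elsewhere in the pathway, 7 genes in all, against 10.9% of all genes. Il36g, a ligand gene named here after its values were seen, rested on 1 library, with 856 counts in acute CS F and none in the other 3 acute libraries. Casp1, the protease that cleaves the precursors of interleukin-1β and interleukin-18, was at 6.15 and 6.83 CPM in acute RA F and M and at 23.02 and 25.97 CPM in acute CS F and M. The libraries of each group were close together, with a log2 fold change of 1.92 ± 0.71 (SE) and an adjusted p of 0.206. Pycard, the adaptor that joins sensors to caspase-1, was at 5.93 and 5.71 CPM in acute RA F and M and at 11.4 and 20.9 CPM in acute CS F and M (log2 fold change 1.47 ± 0.47, SE, adjusted p = 0.139).

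Markers of other cell types were also compared between acute CS and acute RA. Of 72 markers in all lists, 25 were called after acute CS, against 3.47% of all genes tested. Fewer were called when acute CS F, acute RA F or acute RA M was left out, and more without acute CS M, as for all genes. The 4 pan-leukocyte markers all rose in acute CS, among them Ptprc, at 284.6 and 154.1 CPM in F and M against 19.8 and 19.6 CPM. Of 8 T and natural killer cell markers, 3 rose, and their sum with smoke was 112.7 CPM for F and 241.3 CPM for M against 16.8 CPM at most in acute RA, so this list, like Il1rl1, was higher in M, as were the lists for fibroblasts, for lymphatic endothelium and for ILC2, mast cells and basophils. Of 8 macrophage markers 3 rose and 1 fell, Mrc1, which was at 559.7 CPM or more in the RA libraries. The 9 markers of ILC2, mast cells and basophils summed to 33.0 CPM in F and 38.5 CPM in M with smoke against 2.97 CPM at most in acute RA, and 1 of the 5 tested rose, Gata3, at 28.2 and 34.5 CPM. Of the others in that list, Tpsb2 had no count in acute CS, and Il5 and Il13 were at or below 0.0589 CPM there. Cpa3, Fcer1a and Mcpt8 were low but higher in both acute CS libraries than in both acute RA libraries, without a call. Their means were 1, 0.724 and 1.40 CPM against 0.267, 0.0845 and 0.253 CPM, respectively. Ms4a2 overlapped (1.01 against 0.439 CPM). Alveolar type 2 markers summed to 5283 CPM (F) and 207.9 CPM (M) with smoke, against 636 to 909 CPM without, and none of 7 passed the limit. The lists for blood endothelium (5 of 8 rose, 6099 to 6601 CPM against 2599 to 3491), fibroblasts (4 of 8 rose, 477.6 CPM in F and 859 CPM in M against 135 to 183) and dendritic cells (1 of 4 rose, 64.3 to 104.7 CPM against 4.14 to 16.8) were also higher, and 3 of 8 lymphatic markers fell. With the replicate label as a block 3 of the 72 were called. The part of these cell types in the levels of the 9 members was not tested.

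**Figure D4:**
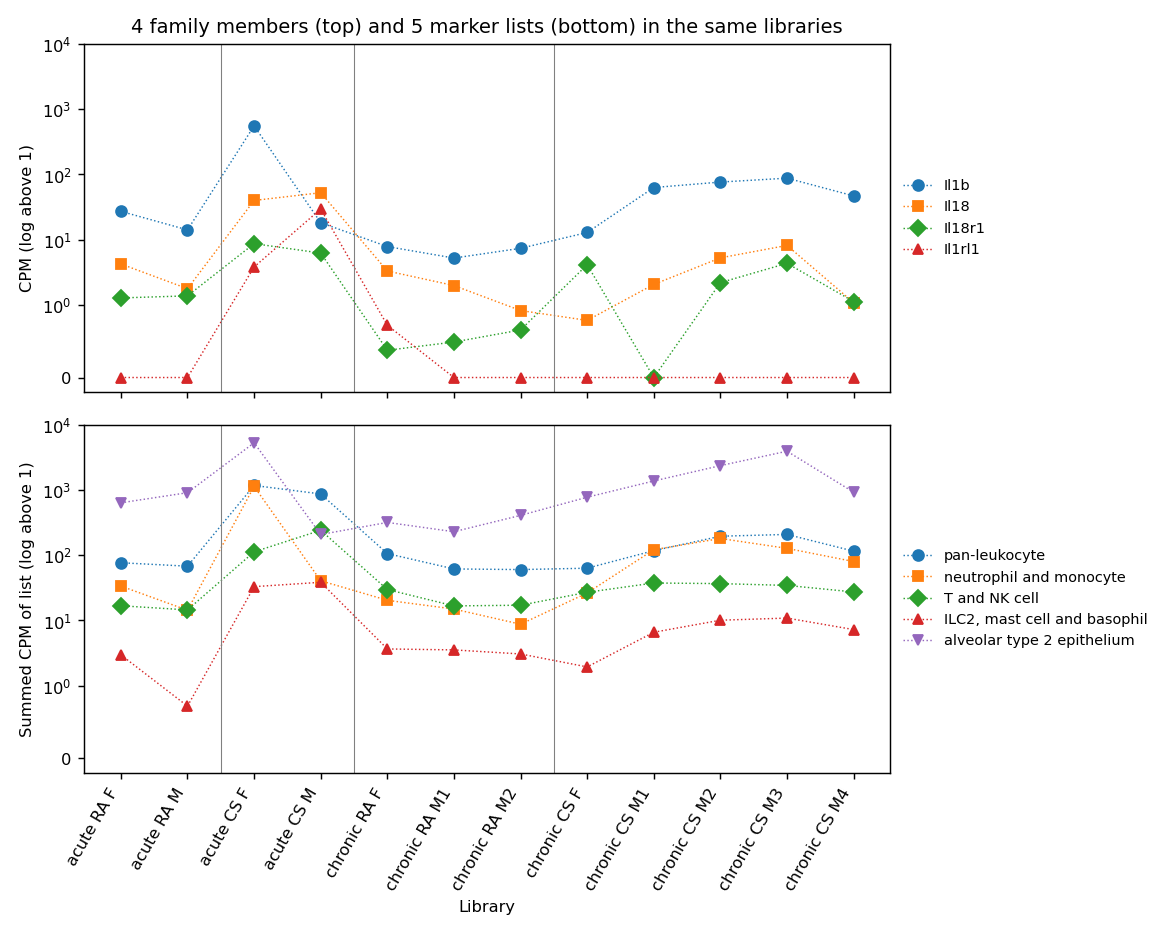
CPM of Il1b, Il18, Il18r1 and Il1rl1 (upper panel) and the summed CPM of 5 marker lists (lower panel) in the 12 libraries along the x axis, on axes that are logarithmic above 1, with vertical lines between groups. Il1b and the neutrophil and monocyte list both peak in acute CS F (556.1 and 1135 CPM), Il1rl1 and the T and natural killer cell list in acute CS M, and in chronic CS the libraries M1 to M4 lie above F for Il1b and for the neutrophil and monocyte list.

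The second comparison was made after chronic exposure. No member passed the adjusted limit in edgeR, as was the case for all genes tested (0% called). Without Il1rl1, which is in the tested set through the acute CS libraries, 1 of 8 members had an unadjusted p under 0.05, against 10.9% of all genes. This was Il1b, the 1 member that DESeq2 called (adjusted p = 0.0209), against 2.91% of all genes. The median log2 fold change of the 8 was 0.68, and that of all genes tested 0.01. In 1 member, Il1b, the groups did not overlap, which held for 9.41% of all genes.

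Il1b was at 7.86, 5.24 and 7.39 CPM in chronic RA F, M1 and M2. The chronic CS libraries F, M1, M2, M3 and M4 held 12.9, 63.1, 76.6, 87.9 and 47.0 CPM, respectively. All 5 smoke libraries were above all 3 controls, and F was the lowest of the 5. The log2 fold change was 3.08 ± 0.93 (SE), the unadjusted p was 0.00663 and the adjusted p 0.324, and the exact two-sided permutation test gave p = 0.0357, the smallest that 5 against 3 libraries allow. Across the 21 alternatives the log2 fold change stayed between 2.63 and 3.33. The 8 neutrophil and monocyte markers had the same order of groups, with 8.76 to 20.4 CPM in chronic RA and 26.4 to 180.6 CPM in chronic CS, where F was again the lowest, and none of the 8 passed the adjusted limit. The 7 alveolar type 2 markers summed to 229.3 to 408 CPM in chronic RA and 774.9 to 3928 CPM in chronic CS, also with F the lowest and also without a call. The 8 fibroblast markers likewise summed to 110 to 148.9 CPM in chronic RA and 167.6 to 290.3 CPM in chronic CS, with F the lowest and no call. F was also lowest in chronic CS for the lists of pan-leukocyte, of T and natural killer cell, and of ILC2, mast cell and basophil markers. In these lists F lay within or below the range of chronic RA. The part of these cell types in the level of Il1b was not tested.

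Il1a, the gene that rose after acute CS, was at 3.45, 2.07 and 0.686 CPM in chronic RA F, M1 and M2 and between 0.881 and 2.54 CPM in chronic CS (median 1.52). The chronic CS libraries lay within the range of the controls (log2 fold change -0.40 ± 0.55, SE, adjusted p = 0.820). Il1rn was at 0.387 to 1.88 CPM in chronic RA. In chronic CS it had no count in F and M2 and was at 2.95, 6.26 and 2.26 CPM in M1, M3 and M4, a split that left the groups overlapping (log2 fold change 1.18 ± 1.32, SE, adjusted p = 0.777). A count of 0 allows up to 0.158 CPM in chronic CS F and 0.125 CPM in chronic CS M2. Where Il1rn was counted, the ratio of Il1b to Il1rn per exon length was 40.7 to 62.1 in chronic CS and 12.1 to 55.4 in chronic RA.

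Of the receptor chains, Il1r1 was at 5.55 to 7.54 CPM in chronic RA and at 1.45 to 15.9 CPM in chronic CS (median 12.5), where M1 was the lowest of all 12 libraries and M2, M3 and M4 lay above all 3 controls. Its log2 fold change was 0.60 ± 0.57 (SE) with an adjusted p of 0.732. Il1rap was at 14.9 to 23.2 CPM in chronic RA and 13.7 to 24.7 CPM in chronic CS, nearly the same range (log2 fold change -0.04 ± 0.27, SE, adjusted p = 0.976). Il33 was at 114.5, 139.8 and 244.3 CPM in chronic RA and at 237.5, 68.2, 163.1, 279.7 and 265.3 CPM in chronic CS F to M4, with M1 the lowest of the chronic libraries (log2 fold change 0.29 ± 0.41, SE, adjusted p = 0.828). Il1rl1 had 23 counts in chronic RA F (0.721 CPM) and none in the other 7 chronic libraries.

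Il18 was at 0.924 to 3.32 CPM in chronic RA and 0.788 to 8.19 CPM in chronic CS (median 2.07, log2 fold change 0.75 ± 0.74, SE, adjusted p = 0.738). Il18r1 was at 0.376, 0.490 and 0.656 CPM in chronic RA F, M1 and M2, and at 4.15, 0, 2.20, 4.35 and 1.13 CPM in chronic CS F to M4. Every chronic CS library but M1, which had no count, was above the controls, with a log2 fold change of 2.22 ± 1.07 (SE) and an adjusted p of 0.478. Il18bp lay at 20.3 to 22.9 CPM in chronic RA and 9.98 to 17.0 CPM in chronic CS, without overlap (log2 fold change -0.60 ± 0.19, SE, adjusted p = 0.330, exact permutation p = 0.0357). Il18rap was at 0.984 to 1.72 CPM in chronic RA and 0.484 to 7.98 CPM in chronic CS, overlapping (adjusted p = 0.679).

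None of the 39 tested pathway genes passed the adjusted limit after chronic CS, as was the case for all genes tested (0% called). Of the 37 that passed the filter without acute CS, 6 had an unadjusted p under 0.05 in edgeR (10.9% of all genes), and DESeq2 called 2, Tnfaip3 and Nlrp3 (2.91% of all genes). In 4 of the 37 the groups did not overlap, against 9.41% of all genes. Tnfaip3 was at 27.9, 27.5 and 41.0 CPM in chronic RA and at 43.8 to 82.4 CPM in chronic CS (log2 fold change 0.91 ± 0.25, SE, adjusted p = 0.288). Nlrp3, an inflammasome sensor named here after its values were seen, was at 0.0627, 0 and 0.268 CPM in chronic RA and at 0.616 to 4.36 CPM in chronic CS, with an adjusted p of 0.312. Casp1 ran the other way, at 7.80 to 15.5 CPM in chronic RA and 1.32 to 9.29 CPM in chronic CS (log2 fold change -0.99 ± 0.50, SE, adjusted p = 0.488).

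**Figure D5:**
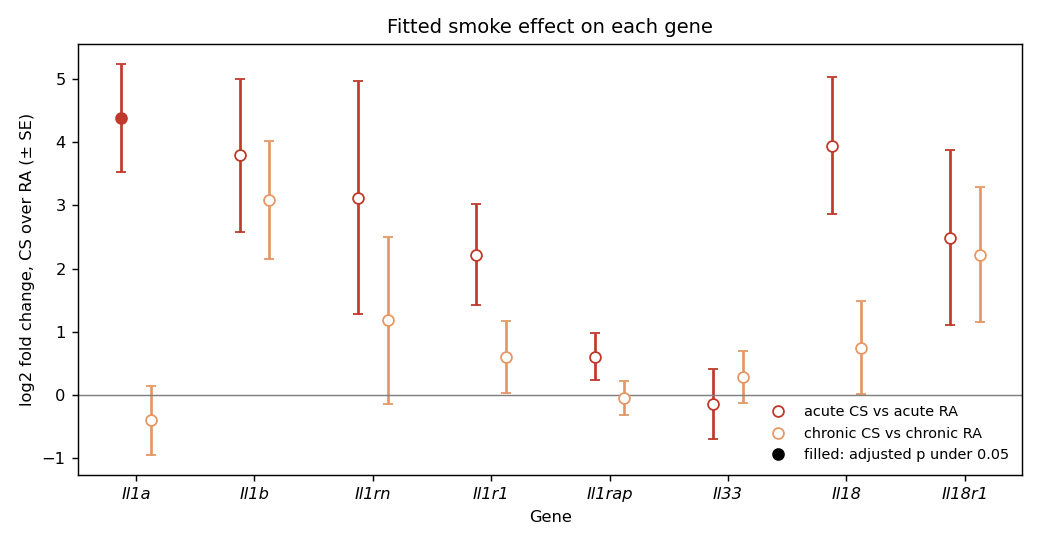
Fitted log2 fold change of CS over RA (y axis, bars are standard errors) for 8 genes after acute and chronic exposure, with filled points for an adjusted p under 0.05. Il1rl1 is left out because acute RA held no count of it. Only the acute point of Il1a is filled, the acute points of Il1a and Il18 lie well above the chronic ones (4.38 and -0.40, and 3.94 and 0.75), and those of Il1b and Il18r1 are near each other.

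The difference between the acute and the chronic smoke effect was tested in the same fit. No member passed the adjusted limit, against 0.452% of all genes, with 2 of 8 at an unadjusted p under 0.05 when Il1rl1 is left out (11.9% of all genes) and 1 called by DESeq2, Il1a (5.23% of all genes). For Il1a the acute effect exceeded the chronic effect by a log2 fold change of 4.79 ± 0.99 (SE), with an adjusted p of 0.0671 and a range of 0.000149 to 0.333 over 20 alternatives. For Il18 the difference was 3.18 ± 1.23 (SE, adjusted p = 0.330), and for Il1b 0.72 ± 1.35 (SE, adjusted p = 0.914). The differences of Il1rn, Il1r1, Il1rap and Il18r1 were also positive, that of Il33 was -0.43 ± 0.69 (SE), and their adjusted p-values lay between 0.562 and 0.987. For Il1rl1 no fold is given because acute RA and chronic CS held no count, and nothing is drawn from its adjusted p of 0.161.

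The RA groups of both time points were compared last. No member was called by edgeR, as for all genes (0%), and 1 of 8, without Il1rl1, had an unadjusted p under 0.05 (7.01% of all genes), while DESeq2 called none (1.55% of all genes). This member was Il1a, whose 3 chronic RA libraries lay above both acute RA libraries (log2 fold change 1.93 ± 0.74, SE, adjusted p = 0.662). Il33 likewise was at 114.5 to 244.3 CPM in chronic RA and at 71.6 and 80.2 CPM in acute RA, a log2 fold change of 1.13 ± 0.52 (SE) with an adjusted p of 0.713. Il1b, Il1rn and Il18r1 were lower in every chronic RA library than in both acute RA libraries, by log2 fold changes of -1.60, -1.47 and -1.39 (adjusted p = 0.772, 0.898 and 0.853). Groups without overlap, as in these 5 members, occurred in 34.7% of all genes, and the exact two-sided permutation test cannot go below p = 0.200 here.

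The genes whose log2 CPM most resembled that of a member over the 12 libraries were listed as a description, among 14695 genes with a mean of at least 1 CPM. The libraries share their groups and their marker levels. For Il1b these were Cdh1, S100a9 and S100a8 (Pearson r = 0.957, 0.956 and 0.951). For Il18 they were Clec4n, Tnfaip8l2 and Atp6v0d2 (0.980, 0.973 and 0.960), for Il1rn Clec12a, Klra2 and Olfml2b (0.967, 0.960 and 0.958), and for Il1a Pik3cd, Dok3 and H2-Ab1 (0.932, 0.917 and 0.913). Il1r1 and Il18r1 had Rab7b in common: Il1r1 was nearest to Rab7b, Tmem154 and Glb1l3 (0.955, 0.936 and 0.934), and Il18r1 to Rhoh, Rab7b and Olfml1 (0.932, 0.929 and 0.928). Il33 was nearest to Fam19a5, Zfp36l2 and Osbpl5 (0.932, 0.919 and 0.909), and Il1rap to Mdm1, Tax1bp1 and Tmem243 (0.907, 0.902 and 0.891). Il1rl1, which was at 0 in 9 of 12 libraries, was nearest to Pla2g4a, Stmn1 and Ctsa (0.936, 0.928 and 0.928), a likeness that rests on its 3 libraries with counts.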

How the data were processed

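RNA of sorted lung LECs was sequenced in 12 libraries. The authors deposited raw counts of reads, with 1 row per Ensembl identifier and no normalization. Per the study's methods, the authors checked reads with FastQC (0.11.9 per the labels), trimmed them with Skewer, filtered them with Minion and aligned them with STAR to GRCm38/mm10, whose GeneCounts mode gave the counts. The annotation release and strand setting are not given in the sources used here.

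Symbols, positions and exon lengths came from GENCODE M21, which lacked 147 identifiers holding at most 0.011% of a library's counts. In R 4.3.3, edgeR 4.0.16 (TMM, filter by expression, quasi-likelihood F-test) fitted all 12 libraries by group, with Benjamini-Hochberg adjustment over 21440 genes and a limit of 0.05. Single-library log2 CPM used a prior count of 2. DESeq2 1.42.0, library size scaling, no filter, sex, a replicate block, robust estimation, only the groups compared, parts of chronic CS, and leaving out each library were alternatives. The statistics were tested on simulated data. Libraries of a group differed beyond sampling noise (lowest median chi-square per gene 6.38), so none was merged. Where no label says that libraries came from separate mice, p-values measure only the spread between these libraries.

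Named genes were the 9 members, pathway genes past the limit or fixed by name (Il18rap, Il1r2, Il18bp, Sigirr, Casp1, Pycard, Myd88), markers beside a result and the 3 most similar genes per member. The members and lists were chosen with earlier results of these data known. Promoter windows came from RefSeq on GRCm38.p6.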

Additional observations from a re-analysis of the deposited data

How the results depend on the processing

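In the acute comparison the 1 member called became 4 with DESeq2, 3 without the filter on low counts (Il1a, Il18 and Il1rl1, which had been left out of the counts set against all genes), 0 with only the groups compared, and 0 to 2 when a library was left out. The share of all genes called was 3.47%, and 10.9%, 2.74%, 0.701% and 0.0130% to 4.51% in these alternatives. The 2 pathway genes called became 7 with DESeq2, 1 with only the groups compared, and 0 to 4 when a library was left out. In the chronic comparison DESeq2 called 1 member and 2 pathway genes against 0, between the RA groups 2 pathway genes against 0 (1.55% of all genes), and for the difference of effects 1 member and 6 pathway genes against 0 (5.23% of all genes). For that difference, 2 members were called without the filter (Il1a and again Il1rl1), and up to 1 member and 1 pathway gene when a library was left out (0.595% and 0% to 1.14% of all genes). Deviations from the group means of libraries with the same replicate label (F, M, M1 or M2) correlated at 0.0693 in the acute and -0.0419, 0.0342 and 0.00601 in the chronic groups, and no source used here ties same-labelled libraries to a shared litter, batch or day, so they were not treated as pairs. They share their sex, and with sex as a covariate the numbers of members and pathway genes called were as in the fit without it. With the replicate block 0 members, 1 pathway gene and 0.340% of all genes were called in the acute comparison. Chronic CS M3 and M4 share no label with a chronic RA library, so in that fit the chronic effect rested on F, M1 and M2. There log2 fold changes turned for Il1rn (-2.31), Il1r1 (-0.16) and Il33 (-0.20) in the chronic comparison and for Il1b (-0.24) and Il33 (0.01) in the difference of effects. None of these was called in that comparison in any fit. Other sign changes came from leaving out libraries, apart from 1 with library size scaling, and none was of a value called by edgeR with all libraries. DESeq2 had called Il1b in the acute comparison (adjusted p = 0.0168). The ranges were -0.18 to 4.75 for Il1b and -0.60 to 0.21 for Il33 in the acute comparison, and -0.81 to 0.19 for Il1a and -0.18 to 0.18 for Il1rap in the chronic comparison. They were -0.14 to 0.94 for Il1r1, -0.23 to 0.11 for Il1rap and -1.06 to 0.22 for Il18 between the RA groups, and -3.25 to 1.67 for Il1b and -0.11 to 0.61 for Il18r1 in the difference. Without acute CS F, Il1b was at -0.18 (acute) and -3.25 (difference) and Il33 at 0.21 (acute), and without chronic RA F, Il1a was at 0.19 (chronic). With chronic CS F, M1 and M2 only, Il1rn was at -0.03 and Il33 at -0.07, and with library size scaling Il1rap was at 0.05. The causes were not tested. Of 700 refitted member fold changes, 662 kept direction and side of the limit. The low counts of Il1rl1, Il18r1, Il18rap and Il1rn in several libraries limit their fold changes, and 2 libraries a group limit the acute comparison.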
